A study of Mus musculus with 3 samples.

Results

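The genes described here encode chemokines, interleukins and their receptors, and they were chosen by name alone: a gene was taken when its symbol begins with Ccl, Cxcl, Ccr, Cxcr or Il followed by a digit and when a probe set on the array names that gene and no other. The rule gave 119 of the 18193 genes with a probe set, and 185 probe sets in all, of which the one with the highest mean signal stands for each gene. They comprise 18 CC chemokine ligands, 13 CXC chemokine ligands, 15 chemokine receptors, 32 interleukins, 6 inhibitors or decoy receptors, 33 interleukin receptor chains and 2 others, *Il4i1* and *Il1bos*. In this study, maxillae of ICR mouse fetuses at E14 were grown in suspension in BGJb medium, where the opposing palatal shelves meet and fuse, and RNA of the dissected palatal tissue was hybridized to Affymetrix whole-genome mouse expression arrays. The group before fusion is the edge of the shelves after 5 h of culture, the group during fusion is median tissue after 24 h, when the epithelial seam is present, and the group after fusion is median tissue after 60 h, when the seam is gone. No mutation or treatment is given for any of the 3 groups, their labels give the sex as female, and each has 1 array. For each stage 5 samples were taken, the methods describe palates prepared one at a time with RNA drawn from each, and how these RNAs came to the single array of a stage is not given in the sources used here. Stage, hours in culture and the piece of tissue taken change together and cannot be told apart, and since the values are of whole tissue, fewer cells of a type and less RNA per cell cannot be told apart either.

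Chemokines are small secreted proteins that guide the migration of leukocytes and of some embryonic cells by binding receptors coupled to G proteins, and the CC and CXC families are named for the spacing of their first cysteines. Interleukins act through paired receptor chains, which signal through JAK kinases and STAT factors or, in the IL-1 and IL-17 families, through adaptors that lead to NF-kB. In a fetus the leukocytes of solid tissues are mostly macrophages, and the epithelia that line the mouth and nose also make many of these ligands.

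Signals were scaled to one trimmed mean, and the background of each array, here called the floor, was set at the 95th percentile of 81 probe sets for olfactory, vomeronasal and taste receptors. In scaled units the floor of the first array (before fusion) was 19.4, that of the second 13.3 and that of the third 14.7. A signal under it was raised to it, so that a ratio with one such signal is a bound, written "at least", and a gene under the floor on both arrays has no ratio. A difference was called when the ratio passed 2-fold. With 1 array for each stage there is no test and no p-value. The data hold no spread other than that among a gene's probe sets. It was taken over probe sets with a mean signal under 100 and both signals above the floor. Within a gene, their log2 ratios had an SD of 0.46 between the first and second arrays and of 0.54 between the third and either. Ratios that are bounds are not in this SD. By mean signal, 111 of the 119 genes are under 100. Transcripts of the Y chromosome (*Eif2s3y*, *Uty* and *Kdm5d*) lay above the floor on all 3 arrays beside *Xist*, which goes against the sex in the labels and did so at each stage.

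Most chemokine and interleukin genes were at background in this tissue, and fewer were so once fusion had begun. Before fusion 82 of the 119 genes (68.9%) lay under the floor, against 60 (50.4%) during and 64 (53.8%) after fusion. For all 18193 genes the shares were 31.5%, 25.3% and 25.6%. The higher floor of the array before fusion enters these counts: with that floor of 19.4 on every array, an alternative chosen after seeing the data, 82, 73 and 72 of the 119 genes lay under it, and 31.5%, 30.9% and 29.5% of all genes. In all, 31 genes exceeded the floor on every array, 50 on none and 38 on some. The 50 never above it include the genes of *Il6*, the best known fever cytokine, of *Il10*, which restrains inflammation, of the T cell growth factor *Il2* and of *Il5* and *Il13*, which act in allergy. This says only that their signals could not be told from background at this sensitivity.

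Counted by role, among the CC chemokine ligands 5 of 18 exceeded the floor before fusion, 12 in its course and 13 at the end, and among the inhibitors and decoys 1 of 6, then 4 and 4. Of the 32 interleukins themselves 7, 14 and 8 exceeded it on the respective arrays. The receptors had 3, 4 and 3 of 15 chemokine receptors and 14, 15 and 17 of 33 interleukin receptor chains. The CXC ligands had 7, 9 and 9 of 13. With the highest floor on every array the counts were 5, 11 and 11 for the CC ligands, 7, 7 and 9 for the CXC ligands, 3, 2 and 2 for the chemokine receptors, 7, 8 and 6 for the interleukins, 1, 4 and 4 for the inhibitors and decoys and 14, 14 and 15 for the receptor chains. By that common floor 10 genes were under it before fusion and above it on both later arrays: *Ccl2*, *Ccl5*, *Ccl9*, *Ccl20*, *Ccl25*, *Il1b*, *Il1rn*, *Il1f5*, *Il18bp* and *Il6ra*. With each array's own floor 15 genes had this pattern, the other 5 being *Ccl3*, *Cxcl2*, *Cxcl10*, *Il7r* and *Il4i1*, and the signal of *Il4i1* was no higher on the later arrays (16.1, 13.9 and 15.2). The gene *Il2rb*, which encodes a chain of the IL-2 receptor, was above the floor before fusion alone.

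**Figure D1:**
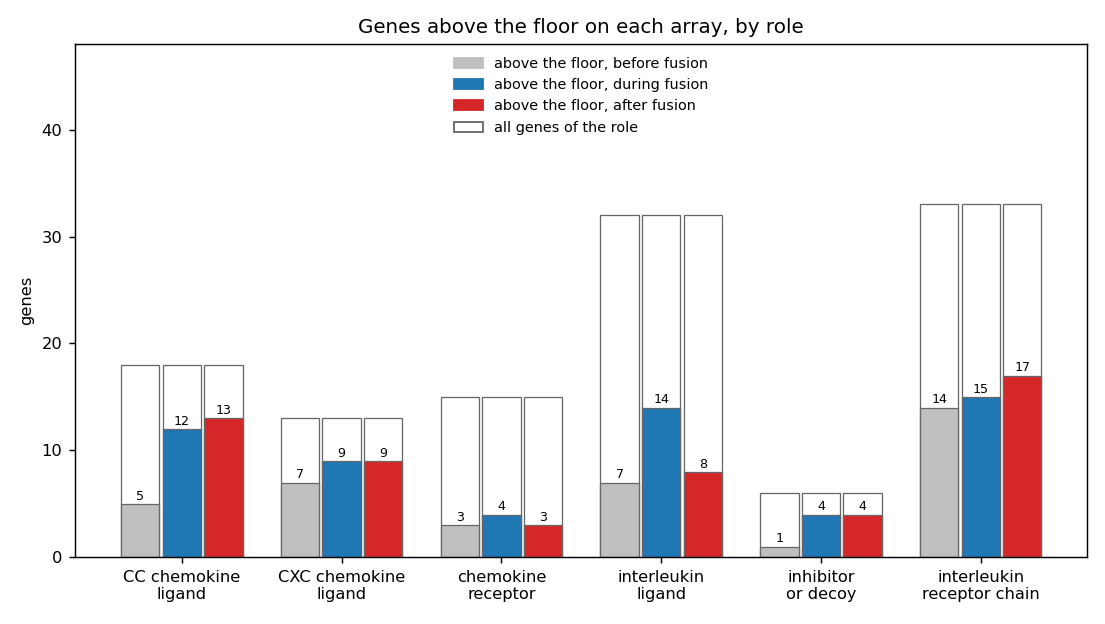
Number of genes above the background floor (filled bars) among all genes of each role (open bars), on the array of each stage, before, during or after fusion. The CC ligands go from 5 of 18 before fusion to 13 after it, while the chemokine receptors stay at 3 or 4 of 15.

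During fusion, 7 of the 60 genes with a ratio were over 2-fold higher than before fusion, where 5.45% of all genes were (5.63% of those with a mean signal under 100), and 4 were over 2-fold lower, against 3.19% of all genes and 6.16% of the dim ones. The higher genes were 5 CC ligands (*Ccl2*, *Ccl9*, *Ccl12*, *Ccl20* and *Ccl25*), the CXC ligand *Cxcl1* and the receptor antagonist *Il1rn*, and 5 of the 7 rest on a signal under the floor before fusion. The lower genes were *Il33*, *Cxcr3*, *Il17rd* and *Il1r2*, each above the floor on both arrays. Of these 11 calls, those of *Ccl9* and *Il33* held in each of 10 alternatives run for single genes (all but the change of gene symbols). The median log2 ratio of the 60 genes was 0.16, and it was 0.22 over the 36 above the floor on both arrays, beside -0.05 for all genes. The split of 7 higher and 4 lower depends on the scaling: it was 14 and 1 with the signals as deposited, 4 and 4 with one median, 5 and 4 after quantile normalization, 7 and 2 with the hybridization controls and 2 and 4 with the poly-A controls.

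After fusion, 16 of the 61 genes with a ratio were over 2-fold higher than before fusion, against 12.6% of all genes and 15.0% of the dim ones, and 5 were lower, against 9.58% and 11.9%. Of the 16, 14 were dim, of 53 dim genes with a ratio. By role, 5 of 13 CC ligands with a ratio were higher (*Ccl3*, *Ccl9*, *Ccl12*, *Ccl20*, *Ccl25*), 5 of 10 CXC ligands (*Cxcl1*, *Cxcl3*, *Cxcl10*, *Cxcl16*, *Cxcl17*), 2 of 4 chemokine receptors (*Ccr1*, *Cxcr4*), 3 of 19 interleukin receptor chains (*Il7r*, *Il13ra1*, *Il17rc*), 1 of 4 inhibitors (*Il1rn*) and none of 10 interleukins. No chemokine ligand was lower. The lower genes were *Il1r1*, *Il1r2*, *Il17rd*, *Il1f6* and *Cxcr3*. In each of these 10 alternatives 10 of the 16 and, of the 5, *Il1r2* kept their calls. The median log2 ratio was 0.39 over all 61 genes and over the 31 above the floor on both arrays, beside -0.09 for all genes, and the split of 16 and 5 was 19 and 3 for deposited signals, 12 and 6 under the poly-A scaling, 12 and 2 when each array's median was its floor and 16 and 2 with the highest floor on every array, where *Cxcr3*, *Il1f6* and *Il1r1* lost their calls.

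Between the arrays during and after fusion, which are both of median tissue, 9 of 68 genes were over 2-fold higher after it, against 8.73% of all genes and 13.0% of the dim ones, and 3 were lower, against 5.08% and 7.05%. The higher genes were *Ccl3*, *Ccl25*, *Ccl28*, *Cxcl3*, *Cxcl10*, *Cxcl17*, *Il7r*, *Il33* and *Il1f10*, and the lower ones *Il1r1*, *Il20* and *Il23a*. All 12 are dim by their mean signal. The median log2 ratio of these 68 genes was 0.24, and 0.31 over the 46 above the floor on both arrays, beside -0.03 for all genes. The 3 comparisons share their arrays, so their counts are not independent of each other. The share of the family that was higher was thus close to that of dim genes in this comparison. During over before fusion the share was 11.67% and fell with the scaling to 6.67% with one median, where 4.38% of all genes were higher, and to 3.33% with the poly-A controls, beside 3.83% of all genes. After over before fusion it was 26.2%, and it lay between 19.7% with the poly-A controls and 34.5% with no floor, settings at which 9.60% and 17.3% of all genes were higher.

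**Figure D2:**
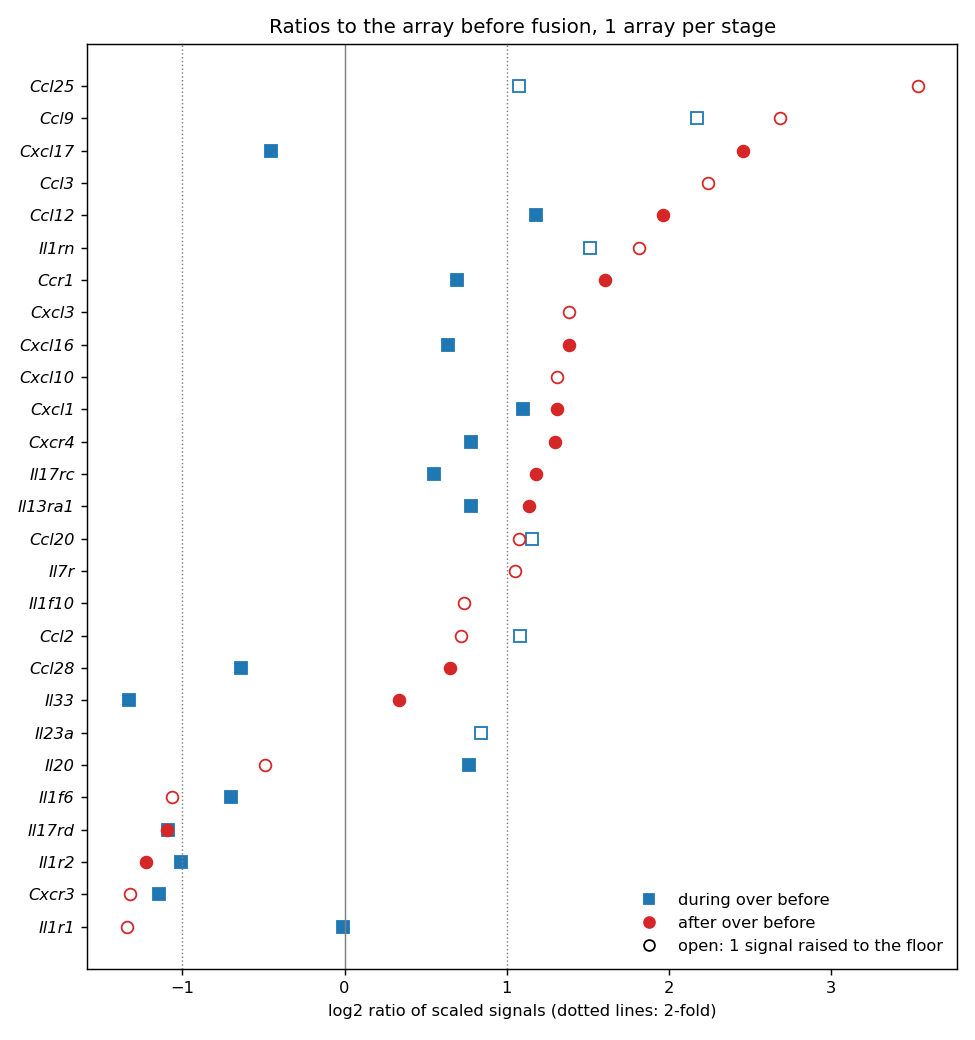
Log2 ratio of the scaled signal to the array before fusion for the 27 genes past 2-fold in any of the 3 comparisons, during fusion (blue squares) and after fusion (red circles), with open symbols for bounds and dotted lines at 2-fold. Points that could not give a direction, because the bound lies on the other side of 1, are left out. Ligands such as *Ccl25*, *Ccl9* and *Cxcl17* lie highest after fusion, and *Il1r1*, *Cxcr3*, *Il1r2* and *Il17rd* lowest.

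The CC ligands divide into those that attract monocytes and macrophages and those known from epithelia. Of the first kind, *Ccl12*, a mouse ligand related to *Ccl2* and recognised by the same receptor, had scaled signals of 23.5 before, 53.4 during and 91.8 after fusion. All 3 exceeded the floor, and the gene rose 2.27-fold by the second array and 3.90-fold by the third. Its ratio during fusion was 1.95 under the poly-A scaling, short of the call. *Ccl9*, a ligand of *Ccr1*, had signals of 19.2, 87.6 and 124.7. The first lies just under the floor, and the bound on its ratio was at least 4.52 during fusion and reached at least 6.43 at the end. Its ratios stayed past 2-fold in all 10 alternatives run for it, from 3.19 to 5.48 during and from 4.24 to 7.26 after fusion.

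*Ccl3*, a chemokine of activated macrophages, had signals of 0.892 before, 17.2 during and 91.6 after fusion. It was thus near the floor during fusion and at least 4.72-fold above the first array after it. Between the last 2 arrays, both above the floor, it was 5.34-fold higher. Its neighbour *Ccl4* did not follow: the signals were 47.6, 46.5 and 57.9, and the ratio after fusion was 1.22. *Ccl2*, the main monocyte attractant, had signals of 15.6, 41.1 and 32.0, with a bound of at least 2.12 during fusion and of 1.65 after it. It was the one gene called higher during fusion, and not after it, against the array before fusion. The bound of 1.65 does not show that *Ccl2* changed by less than 2-fold, and with no floor the ratio was 2.05. Its call during fusion held in 6 of 10 alternatives. *Ccl5*, which attracts T cells and monocytes, had signals of 2.12, 22.6 and 34.03 and a bound of at least 1.75 after fusion. That bound was not called, but it does not show a change of less than 2-fold.

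Of the ligands known from epithelia, *Ccl25*, a chemokine of thymus and gut epithelium, had the largest bound. Its signals were 14.3 before, 41.0 during and 224.7 after fusion, which gives bounds of 2.11 for the second array and 11.6 for the third over the first, and a measured ratio of 5.49 between the third and the second. Its receptor *Ccr9* was under the floor on all 3 arrays. *Ccl20*, made by epithelium and recognised by *Ccr6*, went from 2.12 to 43.3 and then 40.9. It rose at least 2.23-fold between the first and second arrays and stayed level from there, with a ratio of 0.946, and *Ccr6* was never above the floor. *Ccl28* of mucosal epithelium had signals of 35.3, 22.7 and 55.4, and was 2.44-fold higher after than during fusion. Another probe set of *Ccl28* gave 1.65 for the same comparison, and a further one was under the floor on all 3 arrays. *Ccl27a*, a skin keratinocyte chemokine that shares the receptor *Ccr10* with *Ccl28*, had signals of 127.0, 225.7 and 133.8, with ratios of 1.78 and 1.05 to the first array. It passed 2-fold at no step, and *Ccr10* was under the floor throughout.

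Among the CXC ligands, *Cxcl1*, *Cxcl2*, *Cxcl3* and *Cxcl5* attract neutrophils through *Cxcr2*. *Cxcl1* had signals of 73.3 before, 157 during and 181.5 after fusion, 2.14-fold and 2.47-fold higher than before fusion. *Cxcl3* had signals of 11.3, 13.1 and 50.6, under the floor until fusion was over and at least 2.61-fold higher after it. *Cxcl2* reached 16.9 and 20.9 from 4.01, with a bound of 1.08 after fusion, and *Cxcl5* had 30.2, 39.7 and 37.8. These 4 genes lie together on chromosome 5 with *Cxcl15*, which was never above the floor. *Cxcr2* was at 12.8, 1.10 and 3.65, under the floor at each stage.

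*Cxcl17*, an attractant of myeloid cells made by mucosal epithelium, had signals of 35.8 before, 26.2 during and 196.1 after fusion. Its ratio between the first 2 arrays was 0.731, and it was then 7.49-fold higher after than during fusion and 5.48-fold higher than before, with a range over the alternatives of 4.57 to 6.19. *Cxcl16*, a membrane-bound chemokine that is also a scavenger receptor, was higher on each later array, with signals of 47.0, 73.3 and 122.5 and ratios of 1.56 and 2.60 to the first array. Its receptor *Cxcr6* had signals of 18.9, 4.87 and 16.1, of which the last alone passed its array's floor although the first was higher, and with the highest floor on every array none did. *Cxcl10*, an interferon-induced ligand of *Cxcr3*, had signals of 8.14, 14.7 and 48.1, at least 2.48-fold higher after fusion. Its fellow ligands *Cxcl9* and *Cxcl11* stayed under the floor on all 3 arrays.

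*Cxcr3* itself ran the other way from *Cxcl10*: its signals were 36.7, 16.6 and 13.1, 2.21-fold lower by the second array and at least 2.50-fold by the third. It is known from activated T cells. In contrast, *Cxcr4*, the receptor for *Cxcl12*, which guides blood cells, vessels and neural crest, had signals of 195.5, 335.6 and 479.6. It was 1.72-fold higher during fusion and, past the threshold, 2.45-fold higher after it (2.05 to 2.77 over the alternatives). *Ccr1*, found on monocytes and neutrophils and the receptor of both *Ccl3* and *Ccl9*, had signals of 30.1, 48.7 and 91.5. It was 1.62-fold higher during and 3.04-fold higher after fusion, so that *Ccr1*, *Ccl3* and *Ccl9* were each over 2-fold higher after fusion. A second probe set of *Ccr1*, with 0.111, 0.551 and 5.72, was under the floor on all 3 arrays. Of the 15 chemokine receptors the other 12 had no call: *Ccr4* and *Cxcr6* were each just above the floor on 1 array and under the highest floor on all 3, and 10 were at background throughout, among them *Ccr2*, the receptor of *Ccl2* and *Ccl12*.

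**Figure D3:**
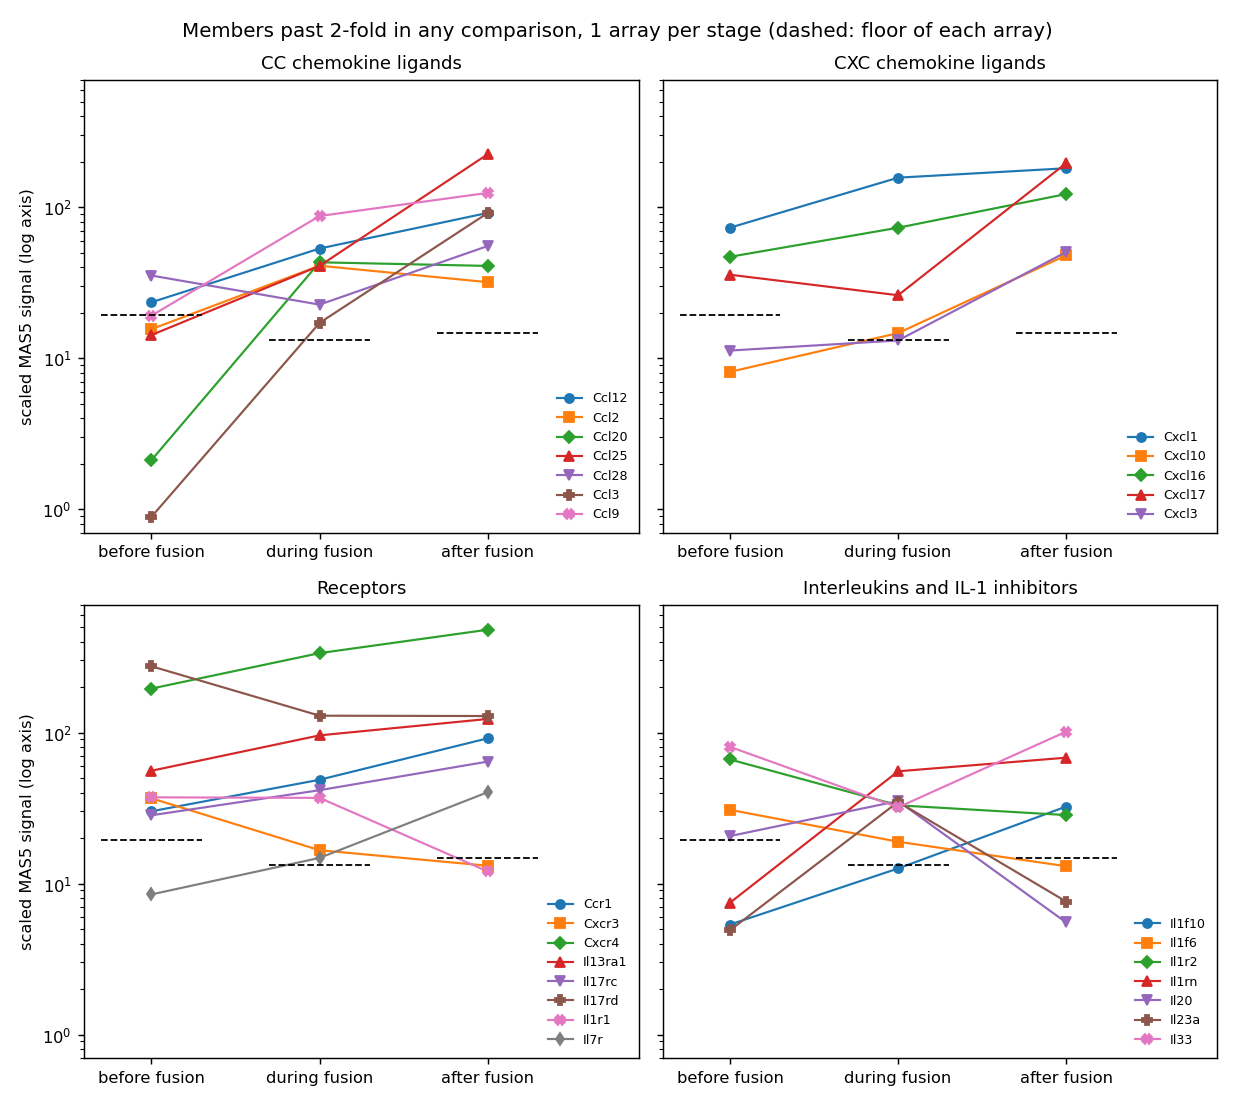
Scaled MAS5 signal (log axis) of 27 genes past 2-fold in any comparison, at each stage of fusion (1 array for each), with the floor of each array as a dashed line. *Ccl20* and *Ccl3* start far under the floor and end at 40.9 and 91.6, and *Il33* is lowest during fusion.

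The probe sets of *Cxcl12* disagreed. Its brightest probe set had signals of 988.5 before, 738.1 during and 1002 after fusion, with ratios of 0.747 and 1.01. The second had 877, 308 and 198, with ratios of 0.351 and 0.226, and the third had 10.4, 6.52 and 27.8. The first thus shows a level signal after fusion, and the second a fall past 2-fold at both stages. Which of them follows the gene was not tested, and no direction is given for *Cxcl12*. For no gene did probe sets pass 2-fold in opposite directions, among the 20, 18 and 20 genes with several probe sets with a ratio in the respective comparisons.

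Where other called genes had several probe sets, they differed in the size of the ratio and at times in its direction. For *Cxcl1* the brightest probe set is of a kind that can match related transcripts, and another, not so marked, had 12.04 before, 35.2 during and 115 after fusion, at least 5.92-fold higher after fusion. A further probe set of *Cxcl1* had 38.3, 41.0 and 50.4. Both probe sets of *Ccl9* were called at both stages, the second with bounds of 2.45 and 2.80, and both of *Cxcl16* after fusion, the second with a bound of 4.29. For *Il1rn* 2 of 3 passed 2-fold after fusion (bounds of 3.51, 3.24 and 1.48), and for *Il13ra1* 2 of 5. The second probe set of *Ccl25* did not follow the first, with 21.8, 22.6 and 11.6, and that of *Il17rd* had 32.7, 18.9 and 38.3, a ratio of 1.17 after fusion where the brightest was 2.14-fold lower.

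**Figure D4:**
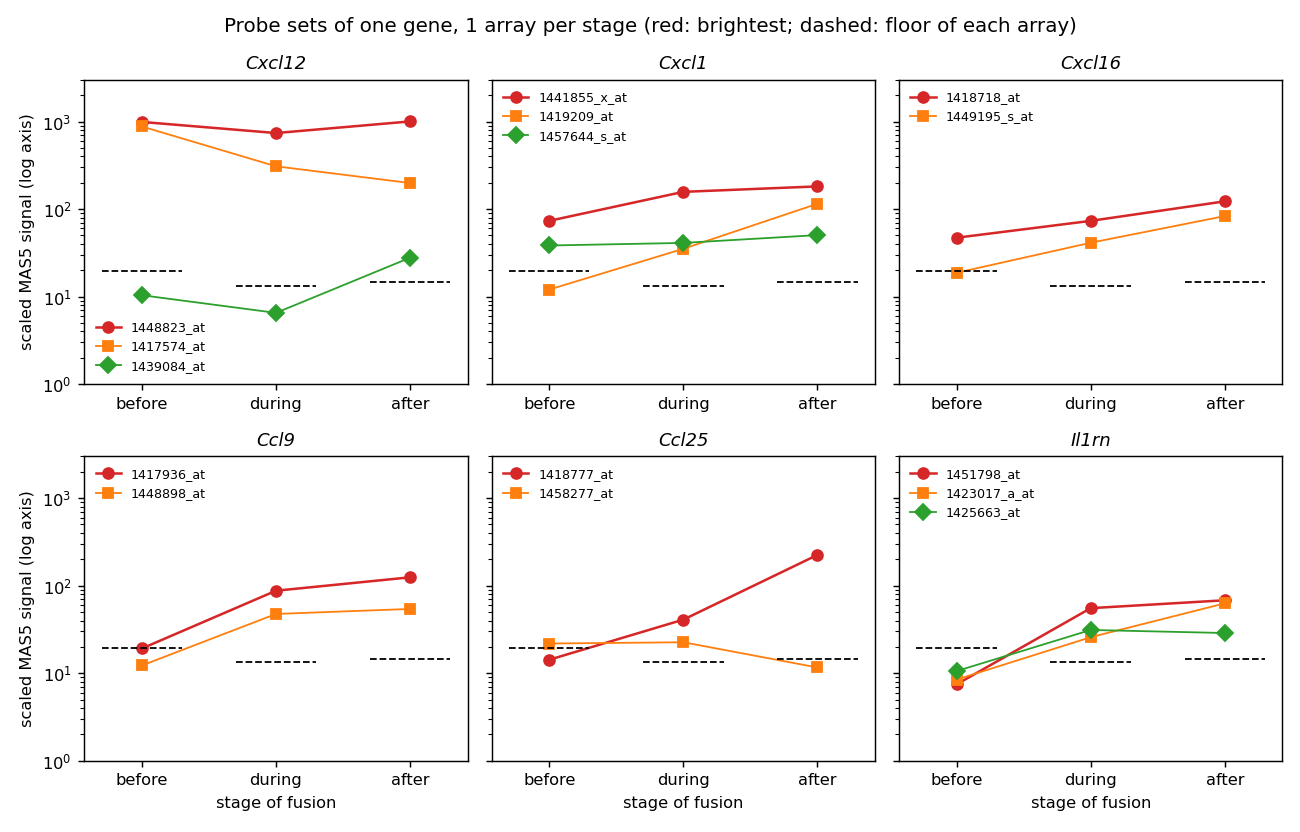
Scaled MAS5 signal (log axis) of each probe set of 6 genes before, during and after fusion, 1 array for each stage, with the brightest probe set in red and the floor of each array as a dashed line. The 2 bright *Cxcl12* probe sets part after the first array, to 1002 and 198 after fusion, while both of *Cxcl16* and both of *Ccl9* are higher after fusion.

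In the IL-1 family, the antagonist *Il1rn* was called higher and both receptors of IL-1 lower after fusion. *Il1rn*, the antagonist that occupies the IL-1 receptor, had signals of 7.47 before, 55.4 during and 68.2 after fusion, so its ratios were bounded below by 2.85 and then 3.51, while 1 of its 3 probe sets had a bound of 1.48 after fusion. *Il1b*, the inflammatory agonist, had 18.3, 33.7 and 38.1, with bounds of 1.74 and 1.96. A bound under 2 does not show that *Il1b* changed by less than 2-fold, and with the signals as deposited the bounds were 2.11 and 2.22. *Il1a* was never above the floor. *Il1r2*, a decoy receptor that takes up IL-1 without signaling, had 66.3, 32.97 and 28.4, and was 2.01-fold lower on the second array and 2.34-fold on the third. The first of these is just past the threshold. *Il1r1*, the signaling receptor, held at 37.2 and 36.9 and then dropped to 12.03, under the floor, at least 2.53-fold lower after fusion than before it, a call that was lost with the highest floor on every array. The shared chain *Il1rap* had 64.3, 66.3 and 57.3 and passed 2-fold nowhere, so that both receptors for IL-1 were lower after fusion while their accessory chain was level.

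*Il33*, an alarmin stored in the nuclei of epithelial, endothelial and stromal cells, had a course of its own: 80.4 before, 32.0 during and 101.4 after fusion. It was 2.51-fold lower during fusion, then 3.17-fold higher after than during it, and the ratio between the first and last arrays was 1.26. Both calls held in all 10 alternatives. *Il18*, which epithelia and macrophages store as a precursor, had 56.2, 100.4 and 93.0, with ratios of 1.79 and 1.66, and its inhibitor *Il18bp* 17.4, 24.3 and 20.9. The IL-36 branch was dim: *Il1f6* (IL-36 alpha) had 30.8, 18.9 and 13.02, at least 2.09-fold lower after fusion, *Il1f10* (IL-38) had 5.35, 12.6 and 32.4, at least 2.43-fold higher after than during fusion, and the receptor *Il1rl2* was level at 66.5, 61.4 and 63.5. Both of these calls rest on a signal near or under the floor.

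Other interleukins were few. *Il17d*, a broadly expressed member of the IL-17 family, had 66.5, 75.9 and 87.4 by its brightest probe set. That probe set is of a kind that can match related transcripts. Another probe set of *Il17d*, not so marked, had 1.89, 1.29 and 8.88, under the floor at each stage. *Il20*, a keratinocyte cytokine, had 20.6, 35.2 and 5.52, at least 2.39-fold lower after than during fusion, and *Il23a*, a subunit of IL-23, was above the floor during fusion alone with 34.7, at least 2.36-fold lower after it. The gene of *Il15*, a growth factor of lymphocytes, was above the floor after fusion alone, with 26.3. Its bound of at least 1.98 against the array during fusion was not called, but it does not show a change of less than 2-fold. *Il20*, *Il23a* and *Il15* have 1 probe set each, and each of these signals is of 1 array.

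Of the chains shared by the receptors of several cytokines, *Il6st*, *Il10rb*, *Il4ra* and *Il13ra1* were above the floor on all 3 arrays, and *Il13ra1* alone among these passed 2-fold. *Il6st*, the gp130 chain used by IL-6, LIF and others, had 319 before, 410.0 during and 520.7 after fusion, with ratios of 1.28 and 1.63. *Il10rb*, shared by the receptors for IL-10 and IL-22, had 200.2, 297.1 and 368.7, with ratios of 1.48 and 1.84. *Il13ra1*, which pairs with *Il4ra* to bind IL-4 and IL-13, had 55.8, 95.8 and 123.0 and was 2.20-fold higher after fusion, while *Il4ra* had 51.3, 63.5 and 79.4. Over its 4 probe sets *Il6st* had ratios of 0.539 to 1.28 during and 1.54 to 1.63 after fusion. Others were dim: *Il7r*, a chain of the receptors for IL-7 and TSLP, was under the floor before fusion, with 8.47, 14.8 and 40.2, and at least 2.07-fold higher after fusion. This call was lost under the poly-A scaling and with the floor at each array's median. The second probe set of *Il7r* was under the floor on all 3 arrays. *Il2rb*, shared by the receptors for IL-2 and IL-15, had 22.1, 12.9 and 9.07, and *Il12rb1* and *Il20rb* were under the floor on all 3 arrays.

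By their brightest probe sets, the genes of the IL-17 receptor family divided. *Il17rd*, also named Sef and known as an inhibitor of FGF signaling, had 274.7 before, 129.3 during and 128.6 after fusion, 2.12-fold and 2.14-fold lower. *Il17rc*, a chain of the receptor for IL-17A and IL-17F, had 28.3, 41.5 and 64.2 and was 2.27-fold higher after fusion. Its partner *Il17ra* had 39.8, 51.0 and 56.2, with a ratio of 1.41 after fusion, and *Il17re*, the chain for IL-17C, 166, 197.7 and 197.8, with ratios of 1.19. Thus 1 chain fell, 1 rose and 2 stayed within 2-fold, and a further one, *Il17rb*, was above the floor after fusion alone, at 22.4.

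Most macrophage markers were higher on the later arrays, and so were some of the markers of neutrophils and of epithelium. For scale, 5.45% of all genes rose past 2-fold from the first array to the second, and 12.6% from the first to the third. The shares of all genes that fell past 2-fold were 3.19% and 9.58%. Of 18 macrophage markers 16 were above the floor on at least 1 array, with *Itgam* and *Cd163* at background throughout, and their summed signal was 1071 before, 2075 during and 4244 after fusion, with 8 of 16 over 2-fold higher during and 15 of 16 after fusion. For 10 neutrophil markers on the array the sum was 133, 241 and 1210, with 4 of 8 higher after fusion, and *Camp* and *Mmp8* at background. *Ltf*, *S100a8* and *S100a9* made up most of the last sum, and these are also made by epithelia. Of the others, *Mpo* went down, with 29.2, 21.9 and 8.48, and *Prtn3* was level at 67.4, 62.6 and 67.1. The 10 epithelial markers were all above the floor, with sums of 10837, 18079 and 25480 and 5 of 10 higher after fusion. Those 5 are all keratins (*Krt5*, *Krt8*, *Krt14*, *Krt18* and *Krt19*), and the other markers stayed within 2-fold, with ratios after fusion of 1.26 for *Epcam*, 1.67 for *Cdh1*, 1.34 for *Grhl2*, 0.613 for *Trp63* and 0.7001 for *Esrp1*. The 10 markers of palatal mesenchyme had sums of 12517, 7134 and 4393 and 7 of 10 lower. The 10 endothelial markers had sums of 1565, 909 and 1001, with 4 of 10 lower during fusion. How far macrophages, neutrophils or the share of epithelium account for the chemokine values was not tested.

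Lymphocyte markers gave no such rise. Of 9 T cell markers on the array 5 were at background throughout (*Cd2*, *Cd3e*, *Cd3g*, *Cd4* and *Themis*), and the sum was 93.3 before, 123 during and 95.6 after fusion. All 6 natural killer cell markers stayed under the floor, with sums of 30.7, 31.2 and 50.5. Of 6 B cell markers 4 were above the floor on some array (*Cd79a* and *Ms4a1* were not) and none passed 2-fold, with sums of 89.5, 65.2 and 68.9. The 7 dendritic cell markers had sums of 143, 95.9 and 93.0, with *Cd207*, *Cd209a* and *Siglech* at background. Mast cell markers had sums of 311, 421 and 2234, of which *Hdc* made 1835 in the last. *Fcer1a*, *Ms4a2* and the protease gene *Mcpt4* were at background, and *Kit* and *Gata2* stayed within 2-fold. Of the other mast cell protease genes, *Cma1* (2.45, 21.4 and 26.6), *Cpa3* (11.9, 7.25 and 29.8) and *Tpsab1* (18.7, 17.1 and 21.8) exceeded the floor after fusion. *Tpsb2* (11.3, 15.5 and 11.1) exceeded it during fusion alone. *Cpa3* was at least 2.24-fold higher after than during fusion.

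Genes of the same pathways that carry other names were compared by list, beside shares of all genes over 2-fold higher of 5.45% during and 12.6% after fusion. Of 14 further chemokine system genes 12 were above the floor, and 2 of 11 with a ratio rose during fusion and 3 of 11 rose after it, and none fell. The platelet chemokines *Ppbp* and *Pf4* were among them: *Ppbp* had signals of 22.1, 146 and 260, 6.61-fold and 11.8-fold higher, and *Pf4* 190, 476 and 784, 2.50-fold and 4.12-fold higher. *Ackr3*, a scavenger receptor for *Cxcl12*, had 1678, 1197 and 933, with a ratio of 0.556 after fusion. *Cx3cl1* and its receptor *Cx3cr1* stayed within 2-fold, with ratios of 1.18 and 1.43 after fusion, and *Xcl1* and *Xcr1* were at background. Of 17 other cytokine genes 1 of 10 with a ratio was higher during and 4 of 11 after fusion, among them *Csf1* (61.3, 93.9 and 153, a ratio of 2.50), the growth factor of macrophages, and its receptor *Csf1r* (2.81), whereas *Tnf*, *Ifng*, *Csf2*, *Csf3*, *Tslp* and *Lta* were at background on all 3 arrays.

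Downstream, 1 of 17 JAK-STAT genes with a ratio was over 2-fold higher during fusion and 2 of 16 after it, with none lower, counts near those shares of all genes. *Stat3*, the main STAT of gp130, had 285 before, 616 during and 930 after fusion, 2.16-fold and 3.26-fold higher, and *Socs3*, its feedback inhibitor, had 174, 195 and 859, 4.93-fold higher after fusion. Among the gp130 cytokines and receptors none of 7 was called during fusion and 1 of 8 was higher after it, *Lif*, with 20.96, 36.5 and 47.3 and a ratio of 2.26, again near the share of all genes. Of 23 genes of IL-1 receptor and NF-kB signaling 1 rose during fusion and 5 rose by the end, and none fell: *Nfkbiz* (74.6, 254 and 322; 3.40 and 4.32), *Bcl3* (4.38), *Relb* (2.30), *Sigirr* (2.72), a negative regulator of IL-1 receptors, and *Casp1*, which processes IL-1 beta and IL-18 (at least 2.71). Of the acute-phase and NF-kB target genes 4 of 15 were higher during and 10 of 15 after fusion, against 5.45% and 12.6% of all genes, with a median log2 ratio of 2.09 after fusion. The medians after fusion were 0.52 for the further chemokine system genes, -0.02 for the other cytokines, 0.34 for JAK-STAT, 0.09 for gp130, 0.50 for IL-1 receptor and NF-kB signaling and 1.73 for the macrophage markers, beside -0.09 for all genes. The haptoglobin gene *Hp*, with 2.79, 20.6 and 634, was at least 32.7-fold higher after fusion, and *Cebpb*, a transcription factor of the acute phase, had 277, 802 and 1698, 2.89-fold and 6.13-fold higher.

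Promoters were read from RefSeq windows of 300 bases (GRCm38.p6, 250 before to 50 after each start), which were at hand for 90 of the 119 genes, 107 windows in all. The NF-kB consensus, searched on both strands, was found in 18 of the 107 windows (16.8%), against 8.46% of 32851 windows of all genes. It was in 6 of 17 windows (35.3%) of the genes called higher than before fusion at either later stage and in 1 of 7 of those lower. The STAT-type motif TTCNNNGAA was in 13.1% of the windows of the family and 8.30% of all, and in 1 of the 17, and TATAAA was in 19.6%, 13.6% and 6 of the 17. Several windows of one gene can overlap, and a match describes letters, not a bound site or a cause. The 6 promoters of higher genes with an NF-kB match are shown because ligands of both families and a receptor share it. Each runs from base -150 to base -1, 5′ to 3′ along the gene's strand, with the matched bases in capitals.
Ccl9, chr11:83578637-83578786, minus strand: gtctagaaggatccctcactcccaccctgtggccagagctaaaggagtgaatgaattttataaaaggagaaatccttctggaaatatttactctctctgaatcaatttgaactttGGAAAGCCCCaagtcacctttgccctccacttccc
Ccl20, chr1:83116616-83116765, plus strand: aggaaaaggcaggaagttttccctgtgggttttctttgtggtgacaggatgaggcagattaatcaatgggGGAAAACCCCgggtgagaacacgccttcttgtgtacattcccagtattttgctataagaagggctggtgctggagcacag
Cxcl1, chr5:90891095-90891244, plus strand: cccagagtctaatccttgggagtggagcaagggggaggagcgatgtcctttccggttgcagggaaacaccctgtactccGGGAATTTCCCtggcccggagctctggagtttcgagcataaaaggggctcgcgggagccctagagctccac
Cxcl3, chr5:90785951-90786100, plus strand: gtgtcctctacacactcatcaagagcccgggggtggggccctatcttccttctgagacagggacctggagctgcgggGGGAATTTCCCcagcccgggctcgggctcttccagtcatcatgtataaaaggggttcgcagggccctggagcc
Cxcl10, chr5:92348890-92349039, minus strand: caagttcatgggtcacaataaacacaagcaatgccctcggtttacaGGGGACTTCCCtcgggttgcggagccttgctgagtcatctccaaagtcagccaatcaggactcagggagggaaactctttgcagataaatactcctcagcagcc
Ccr1, chr9:123968693-123968842, minus strand: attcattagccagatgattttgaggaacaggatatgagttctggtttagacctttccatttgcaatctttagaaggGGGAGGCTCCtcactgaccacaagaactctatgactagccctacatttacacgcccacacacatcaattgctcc

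In *Cxcl1*, *Cxcl3* and *Cxcl10* the capitals span 11 bases, since the consensus of 10 letters matches at 2 overlapping positions, and *Cxcl1* and *Cxcl3* hold the same letters there. Their distance to the start differs little, as the first match begins at base -71 in *Cxcl1* and -73 in *Cxcl3*. It begins at -80 in *Ccl20*, -104 in the stretch shown of *Cxcl10*, whose window holds a further match from -159 to -150, -74 in *Ccr1* and -35 in *Ccl9*. After fusion the signals that go with these promoters were 181.5 for *Cxcl1*, 50.6 for *Cxcl3* and 40.9 for *Ccl20*. Those of the others were 48.1 for *Cxcl10*, 91.5 for *Ccr1* and 124.7 for *Ccl9*. That all 6 genes were over 2-fold higher than before fusion follows from the choice, since only promoters of such genes were shown.

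Many of these genes lie in clusters of neighbours, and in those that follow some members were called and others were not, where 12.6% of all genes were higher and 9.58% lower after fusion. On chromosome 11, of *Ccl2*, *Ccl7*, *Ccl11*, *Ccl12*, *Ccl8* and *Ccl1*, 5 were above the floor on some array, 2 were higher during and 1 after fusion. In the nearby group of *Ccl5*, *Ccl9*, *Ccl6*, *Ccl3* and *Ccl4* all 5 were above the floor, and 1 was higher during and 2 after fusion. In the IL-1 ligand cluster on chromosome 2 (*Il1f8*, *Il1f9*, *Il1f6*, *Il1f5*, *Il1f10* and *Il1rn*) all 6 were above the floor, with 1 higher and 1 lower after fusion. Of the IL-1 receptor cluster on chromosome 1 (*Il1r2*, *Il1r1*, *Il1rl2*, *Il18r1* and *Il18rap*) 2 of 5 were lower after fusion and none was higher. In the receptor cluster on chromosome 9, of *Ccr9*, *Cxcr6*, *Ccr1*, *Ccr1l1*, *Ccr3* and *Ccr2*, *Ccr1* alone was called. Other clusters had no member higher than before fusion at either later stage and none lower after fusion. They are *Il24*, *Il20* and *Il10* on chromosome 1, *Il4*, *Il13*, *Il5* and *Il3* on chromosome 11, and *Il1a*, *Il1b* and *Il1bos* on chromosome 2.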

How the data were processed

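The deposited table holds 1 intensity per probe set and array, which the authors computed with MAS5 in GeneChip Operating Software; a scaling target and detection calls were not given in the sources used here. Of 45037 probe sets other than controls, 34945 name 1 gene; 7 that name a chemokine or interleukin gene beside others were left out. All 119 genes were matched by gene ID (GRCm38.p6 annotation, used for names and promoter windows), and 0 columns of samples were unmapped. The deposited trimmed means (2% left out at each end) differed 1.21-fold between the highest and lowest, and each array was therefore multiplied to reach one common value, by factors of 1.11 before, 0.918 during and 0.986 after fusion. The Mouse Genome chip carries 45101 probe sets in all. Ratios, counts and medians were computed with Python 3.11.15, numpy 2.4.6 and pandas 2.3.3, drawn with matplotlib 3.10.9, and the steps were tested on simulated data. The number of arrays limits the precision.

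The genes and the lists of markers and pathways were chosen with earlier results of these data known. Named genes are those past 2-fold in any comparison, the 12 with the highest mean signal, those whose probe sets disagree, and up to 3 of each list with the highest signal or largest ratio; other genes are named, after their values were seen, to complete a pathway or a receptor with its ligands. Alternatives were 5 other scalings, leaving out the floor, setting it at the array median, taking the median over a gene's probe sets, no probe sets marked as shared, the symbols of the array annotation and, added after the data were seen, the highest of the 3 floors on every array. Some genes of the lists were not matched and were not analysed here.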

Additional observations from a re-analysis of the deposited data

How the results depend on the processing

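The counts during fusion depended most on the processing. Against 7 higher and 4 lower, they were 14 and 1 with the signals as deposited; 4 were higher with one median and 4 with the median over probe sets, 2 were lower with the hybridization controls, and 2 were higher with the poly-A controls. The median log2 ratio of the 60 genes turned to -0.023 with the poly-A controls, and to -0.017 over 119 genes with no floor. With no floor, where all 119 genes enter, 21 were higher and 24 lower during fusion (11.95% and 10.08% of all genes), 41 and 19 after fusion (17.26% and 15.48%), and 36 and 11 after against during fusion (14.35% and 11.16%). With the floor raised to the median of each array, which leaves fewer genes, 3 were higher during fusion, 2 lower after fusion, and 4 higher and 0 lower after against during fusion. With the signals as deposited 3 were lower after fusion. With the highest of the 3 floors on every array, chosen after seeing the data, 2 were lower after fusion and 0 after against during fusion, as the calls of dim genes that fell (*Cxcr3*, *Il1f6*, *Il1r1*, *Il20* and *Il23a*) were lost. The call of *Il1f10*, higher after than during fusion, was lost there too. Among the other 108 values of this kind, counts stayed within 1.5 times. Medians among them kept their sign and moved by less than the SD of log2 ratios within a gene. That SD was taken here over probe sets of any mean signal. Another scaling moves all genes together: their median log2 ratio during fusion shifted by 0.28 as deposited, -0.11 with one median, 0.12 with the hybridization and -0.19 with the poly-A controls, that after fusion by 0.18 as deposited and by -0.26 under the poly-A scaling, and that of after over during by -0.10, 0.15 with one median and -0.17 with the hybridization controls.

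Past 2-fold in each of 10 alternatives run for single genes were Ccl9 (higher) and Il33 (lower) of 11 calls during fusion; Ccl3, Ccl9, Ccl12, Ccl25, Ccr1, Cxcl1, Cxcl16, Cxcl17, Cxcr4 and Il1rn of 16 higher after fusion; Il1r2 of 5 lower; and Ccl3, Cxcl17 and Il33 of 12 in after over during fusion. No paired analysis was possible because each stage has 1 array, and no array could be left out.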
